A study of Homo sapiens with 12 samples.

Results

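The levels of 8 genes of the neuronal cytoskeleton, growth cone and synaptic vesicle were followed through HEK293T cells expressing either of the NCOA2 fusions of sarcoma or activated YAP. They were the neurofilament subunits NEFL, NEFM, NEFH and INA, the growth cone genes GAP43 and STMN2, the tubulin TUBB3 and the vesicle protein gene SYP. These 8 of the 58735 genes in the tables were listed by name and selected on their FPKM in these same libraries, with earlier results for their differences from control known. Their differences between groups are therefore given as a description, with no p-value. Of the 8, 5 genes (NEFL, NEFM, INA, GAP43 and SYP) reached 1 FPKM in at least 3 of the 12 libraries and entered the fit across 15954 genes, whereas NEFH, STMN2 and TUBB3 did not. FPKM, fragments per kilobase of gene divided by a scaling factor for each library, is corrected for gene length, so levels of different genes can be set side by side.

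HEK293T cells, a human embryonic kidney line carrying the SV40 large T antigen, received by transient transfection either empty pcDNA3.1 (control) or a plasmid encoding one of the proteins VGLL2-NCOA2, TEAD1-NCOA2 and YAP5SA, and 3 libraries of mRNA were sequenced in each of the 4 groups. VGLL2-NCOA2 and TEAD1-NCOA2 join the amino-terminal part of VGLL2, which binds TEAD transcription factors as a cofactor, or of TEAD1 itself to the carboxy-terminal activation domains of the coactivator NCOA2, and YAP5SA is a form of YAP that LATS kinases can no longer phosphorylate. All 4 groups share the same wild-type cell line, and the transfected pools can hold cells without plasmid. The labels number the libraries 1 to 3 but do not say that they came from separate transfections, so the spread between them may be technical.

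Neurofilaments are the intermediate filaments of neurons, heteropolymers built from the light (NEFL), medium (NEFM) and heavy (NEFH) subunits and alpha-internexin (INA), which set the calibre of axons. NEFL forms the core, NEFM and NEFH carry long side arms, and INA appears earlier in development than the other subunits. GAP43 and STMN2 act in the growth cone, the motile tip of an extending axon, and lines derived from HEK293 are known to express neurofilament subunits although they were isolated from kidney.

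The promoter letters are shown as context, since the transfected proteins act with TEAD factors, and no test linked them to a level. RefSeq promoters of assembly GRCh38.p14, running from 250 bases before to 50 bases after a start, were matched by symbol for INA, GAP43, SYP and TUBB3, which has a pair of starts, so that 5 promoters were searched on both strands. The TEAD core letters GGAATG stood in 1 of the 5, that of SYP, and in 14.0% of 35116 promoters. The letters GGACAGCG, the right-hand part of the element bound by the neuronal repressor REST, stood in 1 of the 5, that of GAP43, and in 1.63% of all promoters. The left-hand part TTCAGCACC (0.376% of all promoters) and the cyclic AMP response element TGACGTCA (1.85%) were in 0 of the 5. The windows below are shown 5′ to 3′ on the strand of the gene with the matched letters in capitals. The first capital is at position -169 in SYP and -97 in GAP43, counted from the start as position 1.
SYP (chrX:49200347-49200372, minus strand): cctccgggccGGAATGgctgccggtg
GAP43 (chr3:115623403-115623430, plus strand): agggaagagaGGACAGCGgagagagagc
A match of letters is a description of these windows and not a site of binding.

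NEFL, the light subunit (ENSG00000277586, chromosome 8, 24950955-24957110 on GRCh38, minus strand), stood at 42.1, 44.4 and 48.3 FPKM in the control libraries. Its level was 16.1, 16.6 and 16.7 FPKM with VGLL2-NCOA2 and 19.8, 23.6 and 22.4 FPKM with TEAD1-NCOA2. With YAP5SA it was 1.35, 2.14 and 1.25 FPKM. No pair of groups overlapped, and the order from high to low was control, TEAD1-NCOA2, VGLL2-NCOA2 and YAP5SA. The control mean of 45.0 ± 3.098 FPKM (SD, n = 3) was 2.73 times the VGLL2-NCOA2 mean of 16.5 ± 0.361, 2.05 times the TEAD1-NCOA2 mean of 21.95 ± 1.93 and 28.4 times the YAP5SA mean of 1.58 ± 0.487 FPKM.

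NEFM, the medium subunit (ENSG00000104722, chromosome 8, 24913012-24919098, plus strand), was the most abundant of the 8 genes in control cells, at 84.7, 88.4 and 110.7 FPKM. It was 41.1, 42.5 and 42.4 FPKM with VGLL2-NCOA2 and 13.4, 17.5 and 15.002 FPKM with TEAD1-NCOA2. The YAP5SA libraries held 6.27, 6.22 and 4.78 FPKM. Again no groups overlapped, but the fusions stood in the opposite order to that of NEFL, with VGLL2-NCOA2 above TEAD1-NCOA2. The control mean of 94.6 ± 14.1 FPKM (SD, n = 3) was 2.25, 6.18 and 16.4 times the means with VGLL2-NCOA2 (42.0 ± 0.747), TEAD1-NCOA2 (15.3 ± 2.11) and YAP5SA (5.76 ± 0.844). NEFM and NEFL lie next to each other on opposite strands with 31856 bases between them. The other protein-coding genes tested within 500000 bases of NEFL or NEFM were DOCK5, near both, and GNRH1 and KCTD9, near NEFL only. They were called in no comparison with control.

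INA, alpha-internexin (ENSG00000148798, chromosome 10, 103277163-103290351), varied far less than the other abundant subunits. It measured 9.91, 9.81 and 11.1 FPKM in control cells and 8.42, 7.70 and 9.10 FPKM with VGLL2-NCOA2. It measured 7.10, 7.30 and 7.93 FPKM with TEAD1-NCOA2 and 7.73, 8.96 and 12.1 FPKM with YAP5SA. All libraries of both fusions lay below the lowest control library, while the YAP5SA libraries spanned the control range, and the 3 treated groups overlapped one another. NEFH, the heavy subunit (ENSG00000100285, chromosome 22, 29480230-29491390), was between 0.0169 and 0.245 FPKM in all 12 libraries, with 3 to 5 fragments per control library, and all of its group ranges overlapped. At that depth a difference in NEFH was not detectable.

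**Figure D1:**
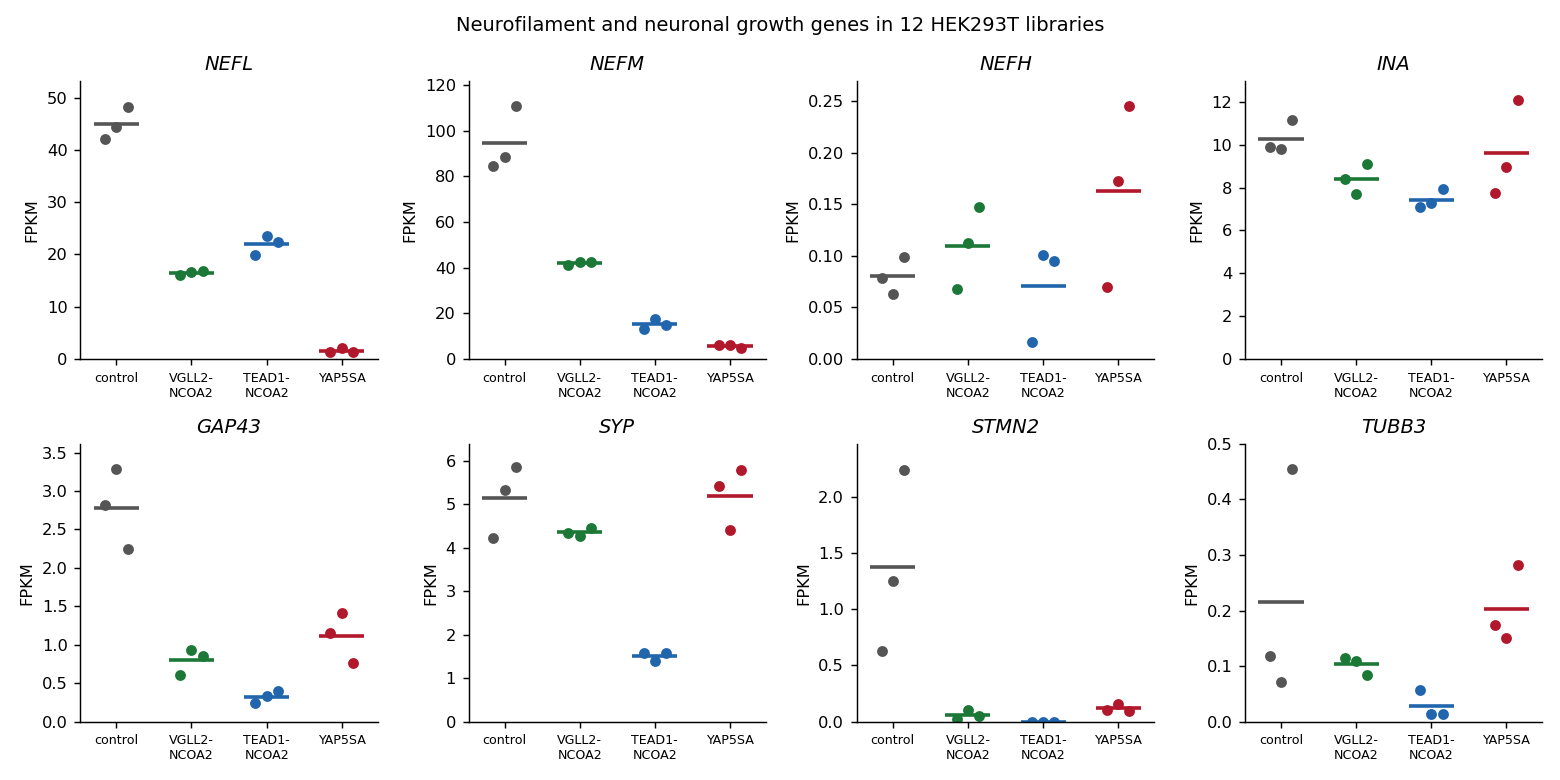
Level of each of the 8 genes in FPKM (linear axes from 0, a scale for each gene) in the control, VGLL2-NCOA2, TEAD1-NCOA2 and YAP5SA libraries. Points are libraries and lines are group means of 3; NEFL and NEFM separate all 4 groups, SYP separates only TEAD1-NCOA2, and STMN2 is at 0 in the 3 TEAD1-NCOA2 libraries.

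Because these subunits changed unequally, the makeup of the filament transcripts differed between groups, and a ratio of genes within a library does not depend on how that library was scaled. The ratio of NEFM to NEFL was 1.99 to 2.29 in control libraries and 2.53 to 2.56 with VGLL2-NCOA2. It was 0.670 to 0.743 with TEAD1-NCOA2, the only group in which NEFL exceeded NEFM, and 2.91 to 4.64 with YAP5SA. The 4 ranges did not overlap. The means were 2.10 ± 0.170, 2.55 ± 0.0177, 0.696 ± 0.0411 and 3.79 ± 0.869 (SD, n = 3) in that order.

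The 4 filament genes summed to 150 ± 17.8 FPKM in control cells (SD, n = 3), 67.0 ± 1.35 in VGLL2-NCOA2 cells, 44.8 ± 4.16 in TEAD1-NCOA2 cells and 17.1 ± 1.52 in YAP5SA cells. INA made up 6.89% ± 0.349 of that sum in control cells, 12.5% ± 0.928 in VGLL2-NCOA2 cells, 16.7% ± 1.45 in TEAD1-NCOA2 cells and 55.7% ± 8.77 in YAP5SA cells. The sum in YAP5SA cells was thus mostly INA, at 50.1% to 65.8% per library. NEFL made up 30.1%, 24.6%, 49.0% and 9.27% in the same order, and NEFM 63.0%, 62.7%, 34.1% and 34.1%.

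**Figure D2:**
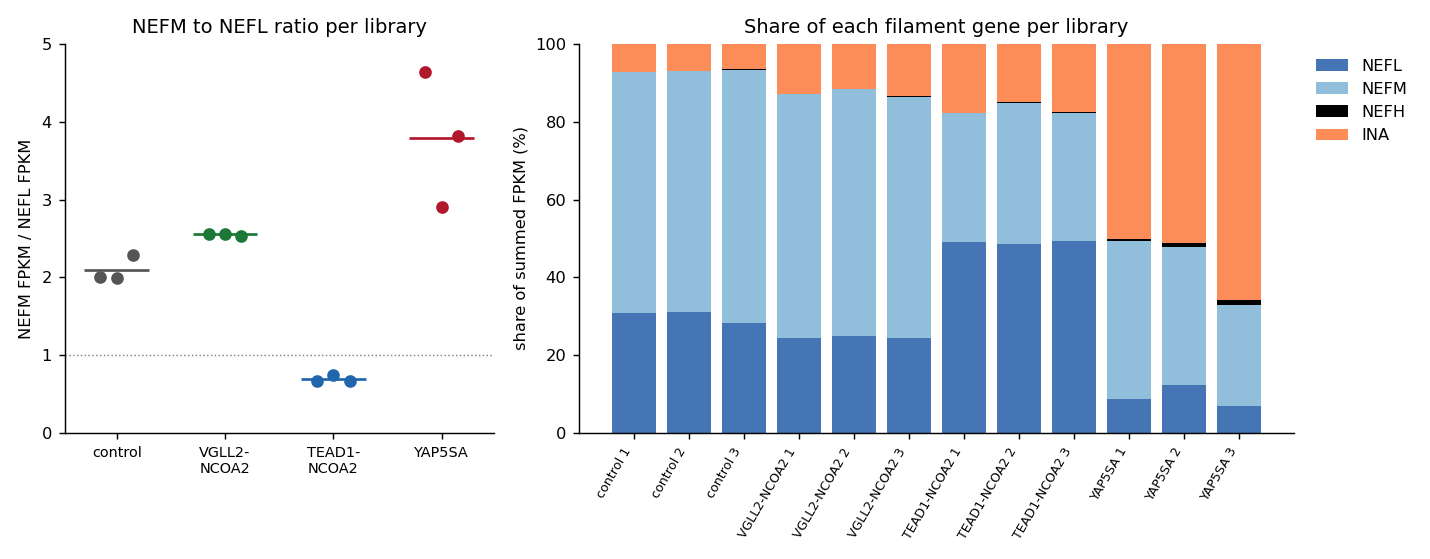
Left, NEFM level divided by NEFL level in each library (points) with the group means (lines), the dotted line marking a ratio of 1. Right, share of NEFL, NEFM, NEFH and INA in the summed FPKM of the 4 genes in each library, in percent; the ratio lies under 1 only with TEAD1-NCOA2, and INA takes 50.1% to 65.8% with YAP5SA.

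GAP43, a membrane-bound growth cone protein (ENSG00000172020, chromosome 3, 115623324-115721490), measured 2.81, 3.29 and 2.25 FPKM in control cells, from 79, 86 and 63 fragments. It was 0.613, 0.934 and 0.858 FPKM with VGLL2-NCOA2 and 0.245, 0.335 and 0.402 FPKM with TEAD1-NCOA2, the last from 8, 11 and 14 fragments. It was 1.16, 1.41 and 0.768 FPKM with YAP5SA. All treated libraries lay below all control libraries, TEAD1-NCOA2 lay lowest, and the VGLL2-NCOA2 and YAP5SA ranges overlapped. The control mean was 3.47, 8.50 and 2.50 times the mean with VGLL2-NCOA2, TEAD1-NCOA2 and YAP5SA. GAP43 passed the minimum of 1 FPKM in 5 libraries, the 3 of the control and 2 of YAP5SA.

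STMN2, a stathmin that regulates microtubules in growing axons (ENSG00000104435, chromosome 8, 79610814-79666175), measured 0.629, 1.25 and 2.24 FPKM in control libraries, from 20, 37 and 71 fragments. With VGLL2-NCOA2 it was 0.0271, 0.103 and 0.0523 FPKM, from 1, 4 and 2 fragments. Over the group, the control level was 22.4 times that of VGLL2-NCOA2, with an exact 95% interval of 10.6 to 56.8 that covers counting error only. All 3 TEAD1-NCOA2 libraries held 0 fragments, and against the 3 fragments per library that a count of 0 allows, a mean of 0.0794 FPKM, the control mean was at least 17.3-fold higher. The YAP5SA libraries held 0.1004, 0.157 and 0.0982 FPKM. Control libraries thus lay above all others, with a wide spread among themselves (1.37 ± 0.813 FPKM, SD, n = 3). Only 2 libraries, both of the control, reached 1 FPKM, so STMN2 was not tested.

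TUBB3, the tubulin used as a marker of neurons (ENSG00000258947, chromosome 16, 89921392-89938761), was low throughout. It measured 0.117, 0.0721 and 0.454 FPKM in control cells, where the third library alone gave 27 fragments, and 0.116, 0.110 and 0.0836 FPKM with VGLL2-NCOA2. It measured 0.0577, 0.0144 and 0.0135 FPKM with TEAD1-NCOA2, from 4, 1 and 1 fragments, and 0.174, 0.151 and 0.282 FPKM with YAP5SA. TEAD1-NCOA2 was the lowest group, its ranges clear of the other 3, and the control range overlapped those of VGLL2-NCOA2 and YAP5SA. TUBB3 belongs to a family of similar genes and overlaps a protein-coding gene on its own strand, AC092143.1. That gene was at 0 FPKM in every control and fusion library and at most 0.0729 FPKM with YAP5SA. How fragments shared by such genes were counted is not known, so the low level of TUBB3 and its order of groups are uncertain.

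SYP, synaptophysin, a membrane protein of synaptic and other small vesicles (ENSG00000102003, chromosome X, 49187804-49200259), followed another pattern. It measured 4.22, 5.33 and 5.86 FPKM in control cells and 4.33, 4.28 and 4.46 FPKM with VGLL2-NCOA2. It measured 1.58, 1.39 and 1.58 FPKM with TEAD1-NCOA2 and 5.41, 4.40 and 5.77 FPKM with YAP5SA. Only the TEAD1-NCOA2 libraries stood apart, below all 9 others, and control, VGLL2-NCOA2 and YAP5SA did not separate. Antisense genes annotated over NEFL, NEFM, NEFH and SYP were at 0.643 FPKM or less in every library, and counting by strand was not stated.

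On the scale of log2(FPKM + 1), a gene was called where limma's Benjamini-Hochberg adjusted p, over the 15954 genes, was under 0.05 and the difference between groups was over 1 in size. With VGLL2-NCOA2, 3 of the 5 genes tested were called lower than control, against 5.03% of all genes tested. They were NEFL, with a difference of -1.39 ± 0.12 (SE), NEFM at -1.14 ± 0.13 and GAP43 at -1.07 ± 0.15. INA, at -0.26, and SYP, at -0.19, were not called. With TEAD1-NCOA2, 4 were called lower, against 6.51% of all genes: NEFM at -2.55 ± 0.13, GAP43 at -1.504 ± 0.15, SYP at -1.28 ± 0.11 and NEFL at -1.003 ± 0.12, while INA differed by -0.42. With YAP5SA, 2 were called lower, against 10.0% of all genes, namely NEFL at -4.17 ± 0.12 and NEFM at -3.82 ± 0.13. GAP43 at -0.84, INA at -0.11 and SYP at 0.02 were not called. The shares over all genes are printed for scale, since these contrasts had guided the choice of genes, and the 3 comparisons share the same control libraries. GAP43 entered the fit through control and YAP5SA libraries, as no library of either fusion reached 1 FPKM. Its calls as lower with the fusions are therefore a description only.

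**Figure D3:**
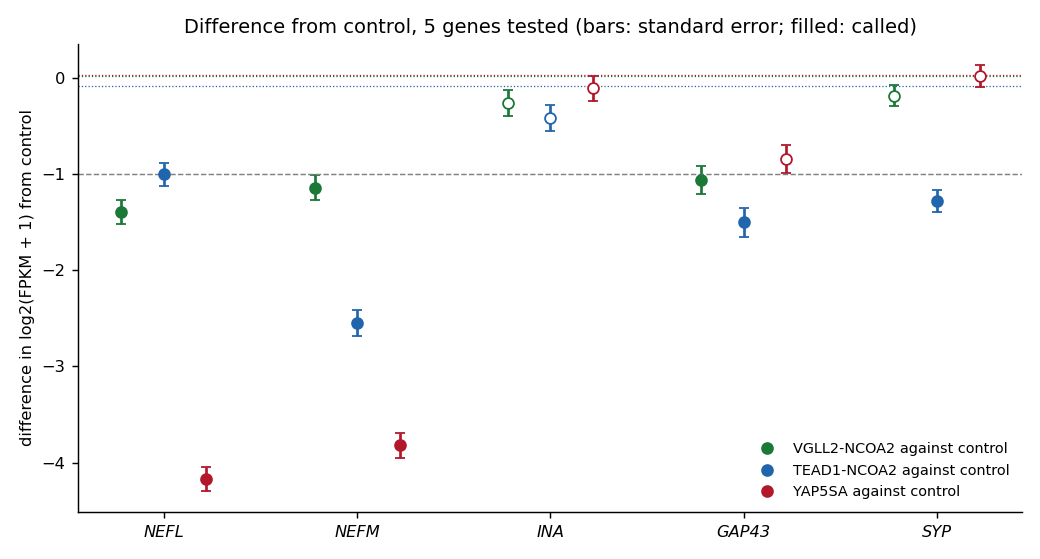
Difference from control in log2(FPKM + 1) of the 5 genes that were tested, for VGLL2-NCOA2, TEAD1-NCOA2 and YAP5SA. Bars are standard errors of the fit, filled points were called, dotted lines are medians over the 15954 genes and the dashed line marks -1; NEFL and NEFM lie lowest with YAP5SA, at -4.17 and -3.82.

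Among the treated groups, VGLL2-NCOA2 exceeded TEAD1-NCOA2 by a called difference in 2 of the 5 genes, against 1.60% of all genes, NEFM by 1.41 ± 0.13 and SYP by 1.09 ± 0.11. NEFL differed the other way by -0.39 ± 0.12, which was not called, and 0 of the 5 were called lower, against 0.370%. VGLL2-NCOA2 exceeded YAP5SA in 2 genes, against 2.04%, NEFL by 2.77 ± 0.12 and NEFM by 2.68 ± 0.13, and 0 were called lower, against 2.06%. TEAD1-NCOA2 exceeded YAP5SA in 2 genes, against 1.72%, NEFL by 3.17 ± 0.12 and NEFM by 1.27 ± 0.13, and lay below it in 1 gene, SYP, by -1.29 ± 0.11, against 4.17%.

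Some of these calls rested on the scale. Rescaled to TPM (values brought to the same sum in every library), the median of all genes shifted to 0.57, 0.35 and 0.77 in the comparisons of VGLL2-NCOA2, TEAD1-NCOA2 and YAP5SA with control. NEFL, NEFM and GAP43 with VGLL2-NCOA2 were then -0.83, -0.55 and -0.97 and no longer called, which is -1.39, -1.12 and -1.54 relative to that median. INA changed sign on that scale, to 0.31, 0.05 and 0.67 in the 3 comparisons, and was -0.26, -0.30 and -0.10 relative to the median. The call of NEFL with TEAD1-NCOA2 sat at the threshold and was lost without control library 3 (-0.95) or TEAD1-NCOA2 library 1 (-0.93). That of GAP43 with VGLL2-NCOA2 was lost without control library 2 (-0.97) or VGLL2-NCOA2 library 1 (-0.99), and after length and GC correction (-0.88). The SYP difference between the fusions was not called after quantile normalization (0.88) or length and GC correction (0.97).

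The libraries themselves differed in ways that run with the groups. The 9 libraries of the control and both fusions gave back whole fragments, 14140996 to 15559838 per library, while the YAP5SA values did not, so their depth is unknown. A value of 1 FPKM stood for 12.5 to 13.5 fragments per kilobase in control libraries and 15.6 to 16.7 with the fusions. Control libraries held 14345840 to 15105367 fragments, within the range of the fusions, so the scaling was not set by these totals alone. Control library 3 and YAP5SA library 3 correlated least with the others of their groups (mean r 0.947 and 0.915 across genes), and YAP5SA library 3 also held 54.4 FPKM of VGLL2 and 141 FPKM of NCOA2, which were at 0 in the other YAP5SA libraries. Without both, NEFL and NEFM with YAP5SA were still called. The transfected genes otherwise matched the labels, YAP1 for example reaching 3369 to 5779 FPKM with YAP5SA against 4.28 to 6.39 in control cells. The mitochondrial share, taken on FPKM times gene length, was 9.97% to 12.6% in control libraries, 6.18% to 6.56% with VGLL2-NCOA2, 6.25% to 9.83% with TEAD1-NCOA2 and 3.60% to 4.64% with YAP5SA. The part of these differences in the results was not tested. Over all genes, 1005 were called higher and 802 lower with VGLL2-NCOA2 (4424 and 205 on the TPM scale), 461 and 1039 with TEAD1-NCOA2 (2575 and 570) and 1667 and 1597 with YAP5SA (6201 and 432).

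Markers of the labelled line and of other cells were read in the same libraries. Of 7 markers of HEK293 and kidney epithelium 6 were tested. All 7 together summed to 58.4 to 69.0 FPKM in control libraries, 65.0 to 66.5 with VGLL2-NCOA2, 32.1 to 35.6 with TEAD1-NCOA2 and 34.2 to 39.8 with YAP5SA, although PAX8 reached at most 0.0417 FPKM. Of 8 neuron markers outside the 8 genes 4 were tested. All 8 markers together summed to 7.08 to 8.05, 7.45 to 7.75, 3.40 to 3.59 and 7.43 to 7.89 FPKM in that order, the low group being TEAD1-NCOA2 as for SYP. Of the 4 tested, SYT1 and GAD1 differed from control by 0.91 and 0.20 with YAP5SA, and SLC17A7 and RBFOX3 by -0.77 and -0.60. With TEAD1-NCOA2, SYT1 and GAD1 differed by 0.02 and -0.37 and were not called. SLC17A7 and RBFOX3 were called lower there, by -1.06 and -1.04, and RBFOX3 reached 1 FPKM in control libraries only. In this list SYT1 ran from 1.03 to 4.08 FPKM and GAD1 from 1.11 to 2.93 over the 12 libraries, SLC17A7 reached 2.18 and RBFOX3 1.66, whereas DCX was at 0 in 11 libraries and SNAP25 and MAP2 stayed at or under 0.129 and 0.145 FPKM. The 4 fibroblast markers summed to 6.95 to 10.9 FPKM in control libraries. They summed to 4.58 to 5.61 with VGLL2-NCOA2, 1.15 to 1.51 with TEAD1-NCOA2 and 2.87 to 3.53 with YAP5SA. The 6 glia markers summed to 4.51 to 5.32, 2.01 to 2.60, 1.90 to 2.32 and 2.64 to 3.57 FPKM in the same order. The fibroblast sum was mostly COL1A1, which reached 10.4 FPKM, as no other marker of that list passed 0.617 (LUM). OLIG2 reached 4.01 FPKM in the glia list, where the next highest, SOX10, reached 1.35. The 5 skeletal muscle markers summed to 3.11 to 5.02 FPKM in control libraries and 8.38 to 14.3 with YAP5SA. They summed to 3.28 to 3.54 FPKM with VGLL2-NCOA2 and 1.20 to 1.49 with TEAD1-NCOA2. With YAP5SA, ACTA1 and MYH3 were called higher than control, by 2.10 and 1.75, while MYOD1 stood at -0.52. MYOD1 was called lower with TEAD1-NCOA2 (-1.58), and MYOG reached at most 0.112 FPKM in any library. The 4 leukocyte markers summed to 0.0791 to 0.212 FPKM in control libraries and 0.775 to 1.48 with VGLL2-NCOA2. Their sum was 0.203 to 0.307 FPKM with TEAD1-NCOA2 and 0.696 to 1.44 with YAP5SA. CD14 reached 1.41 FPKM, whereas CD3E, CD68 and PTPRC reached at most 0.0618, 0.0282 and 0.0128. The part of these lists in the results was not tested, and in bulk RNA fewer cells of a kind cannot be told apart from less RNA per cell.

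Genes that work beside these were read from 7 lists holding 88 genes, of which 66 were tested. The lists were chosen with earlier results of these data known. Most genes named from them were picked for having the largest called differences. Their calls and the limma adjusted p-values printed with them are therefore a description, not independent evidence. The shares of all genes are printed for scale. With VGLL2-NCOA2 1 rose and 6 fell, with TEAD1-NCOA2 1 rose and 17 fell, and with YAP5SA 5 rose and 21 fell. The genes that fell were 9.09%, 25.8% and 31.8% of those tested, beside 5.03%, 6.51% and 10.0% of all genes. Those that rose were 1.52%, 1.52% and 7.58%, beside 6.30%, 2.89% and 10.4% of all genes. The median differences in log2(FPKM + 1) were -0.29, -0.62 and -0.38, beside 0.01, -0.09 and 0.03 over all genes.

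Among 6 other intermediate filament genes tested, VIM and NES fell with both fusions and VIM with YAP5SA. VIM, vimentin, the filament of mesenchymal cells, was 143 ± 18.8 FPKM in control cells and 32.8 ± 0.839, 69.2 ± 6.67 and 40.3 ± 16.7 FPKM with VGLL2-NCOA2, TEAD1-NCOA2 and YAP5SA (SD, n = 3). Its differences were -2.08, -1.03 and -1.89, with limma adjusted p of 0.000112, 0.00835 and 0.000126, given as a description only. The YAP5SA libraries, at 21.6 to 53.6 FPKM of VIM, spanned those of VGLL2-NCOA2, at 31.8 to 33.3. NES, nestin, the filament of neural progenitors, fell with VGLL2-NCOA2 (-1.38, limma adjusted p = 2.6e-05) and TEAD1-NCOA2 (-1.33, limma adjusted p = 3.2e-05) and stood at -0.91 with YAP5SA. The call of VIM with TEAD1-NCOA2 was lost without control library 2 (-0.99), control library 3 (-0.96) or TEAD1-NCOA2 library 1 (-0.96).

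Of 10 growth cone and stathmin genes tested, VGLL2-NCOA2 cells had 2 that fell, TEAD1-NCOA2 cells 4 and YAP5SA cells 5, and none was called higher. BASP1, a membrane protein related in function to GAP43, was 34.6 ± 10.7 FPKM in control cells and 14.8 ± 0.569, 3.41 ± 0.411 and 2.88 ± 0.368 FPKM in the treated groups, with differences of -1.13, -2.97 and -3.16 (limma adjusted p 0.000312, 1.4e-06 and 5.1e-07). NRGN, neurogranin, which binds calmodulin, fell in all 3 comparisons (-1.11, -1.42 and -2.54, limma adjusted p 0.0158, 0.00499 and 7.8e-05). STMN1, the stathmin of dividing cells, fell with YAP5SA (-1.84) and stood at -0.60 and -0.42 with the fusions, and MARCKSL1, an actin-binding membrane protein, stood at -0.60, -1.07 and -1.37 and was called with TEAD1-NCOA2 and YAP5SA. With VGLL2-NCOA2 BASP1 was not called without control library 3 (-0.89), nor NRGN without control library 2 (-0.96). MARCKSL1 was not called with TEAD1-NCOA2 without control library 2 (-0.97), or with YAP5SA without YAP5SA library 3 (-0.98).

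All 10 tubulins other than TUBB3 were tested, and 1, 5 and 8 of them fell with VGLL2-NCOA2, TEAD1-NCOA2 and YAP5SA. TUBA1A, the alpha tubulin of developing neurons, was 52.6 ± 8.49 FPKM in control cells and 22.8 ± 1.03, 15.2 ± 2.05 and 14.0 ± 3.95 FPKM in the treated groups, and fell in all 3 (-1.16, -1.73 and -1.87, limma adjusted p 0.000411, 4.6e-05 and 1.2e-05). TUBB2B, a neuronal beta tubulin, fell with TEAD1-NCOA2 (-1.32) and YAP5SA (-2.003), as did TUBA4A, an alpha tubulin (-2.17 and -1.82). TUBB4B, a widely expressed beta tubulin, fell with YAP5SA (-1.77). Tubulin genes are near copies of one another, and the division of fragments among them is uncertain. Of 4 microtubule-associated protein genes tested only MAPT, tau, was called, with TEAD1-NCOA2, at 1.52 ± 0.184 FPKM against 4.95 ± 0.0857 in control cells (-1.24, limma adjusted p = 1.9e-06), the group in which SYP was called.

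Of 13 synaptic vesicle and granule genes tested, 1, 3 and 5 fell and SV2A rose with YAP5SA. SYNGR3, synaptogyrin 3, a vesicle protein of the same membrane topology as synaptophysin, was 11.7 ± 1.51 FPKM in control cells and 3.39 ± 0.402, 2.34 ± 0.114 and 1.39 ± 0.216 FPKM in the treated groups, and fell in all 3 (-1.53, -1.92 and -2.41, limma adjusted p 8.2e-06, 1.2e-06 and 2.4e-07). RAB3A, a GTPase of vesicles, fell with TEAD1-NCOA2 (-1.84) and YAP5SA (-1.496), as did CPLX1, complexin 1 (-1.10 and -1.03). VAMP2, a vesicle SNARE, fell with YAP5SA (-1.92). SYP was thus called in 1 of the 3 comparisons with control where SYNGR3 was called in all 3. CPLX1 with YAP5SA was not called without control library 2 (-0.95) or YAP5SA library 3 (-0.97).

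Of 14 neuronal transcription and RNA-binding factors tested, none was called with VGLL2-NCOA2. NOVA2, a splicing factor of neurons, fell with TEAD1-NCOA2 (-1.80, limma adjusted p = 1.9e-06) and YAP5SA (-1.48, limma adjusted p = 2.5e-06), from 3.54 ± 0.274 FPKM in control cells to 0.302 ± 0.0208 and 0.636 ± 0.184. RBFOX3, whose protein is the neuronal marker NeuN and which is also in the neuron marker list, fell with TEAD1-NCOA2 (-1.04) and was not called without control library 3 (-0.95). RBFOX3 entered the fit through the control libraries alone, at 1.04 to 1.66 FPKM, so its call as lower is a description only. REST, the repressor of neuronal genes outside neurons, was 3.54 ± 0.995 FPKM in control cells and 6.61 ± 0.384, 7.09 ± 0.486 and 8.17 ± 0.568 FPKM with VGLL2-NCOA2, TEAD1-NCOA2 and YAP5SA. It rose with YAP5SA (1.03, limma adjusted p = 7.5e-05), and stood at 0.77 and 0.85 with the fusions, where the adjusted p of 0.000785 and 0.000483 passed and the size of the difference did not. It passed with both on the TPM scale (1.44 and 1.45), and with TEAD1-NCOA2 also with limma-voom on recovered fragments (1.18), a pseudocount of 0.1 (1.02) or without control library 1 (1.02). The YAP5SA call was lost without control library 3 (0.88) or YAP5SA library 3 (0.99).

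All 9 genes of filament transport, linkage and turnover were tested, of which 1 rose with each fusion, and 3 rose and 1 fell with YAP5SA. KIF5B, a kinesin motor whose family carries neurofilaments, rose in all 3 comparisons, from 10.8 ± 1.04 FPKM in control cells to 29.5 ± 0.435, 36.6 ± 1.18 and 30.3 ± 2.16 (1.37, 1.68 and 1.41, limma adjusted p 6.6e-06, 6.2e-07 and 7.4e-07). DST, dystonin, a linker of filaments to the rest of the cytoskeleton, rose with YAP5SA by 1.62. KIF1A, a motor for vesicle precursors, fell with YAP5SA (-1.83) and stood at -0.98 with TEAD1-NCOA2 and 0.19 with VGLL2-NCOA2. After correction for length and GC content DST with YAP5SA was 0.49 and not called.

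Several of these calls depended on scale or base composition. On the TPM scale calls were lost for VIM (-0.52), TUBB2B (-0.84), NRGN (-0.94) and CPLX1 (-0.95) with TEAD1-NCOA2, for BASP1 (-0.56), NRGN (-0.53) and TUBA1A (-0.58) with VGLL2-NCOA2, for MARCKSL1 with TEAD1-NCOA2 (-0.56) and YAP5SA (-0.57), and for RAB3A (-0.90), CPLX1 (-0.58) and TUBB4B (-0.97) with YAP5SA. After length and GC correction SYNGR3 (-0.90), NRGN (-0.62), BASP1 (-0.83) and TUBA1A (-0.95) were not called with VGLL2-NCOA2. Nor were NES (-0.97), RBFOX3 (-0.90), CPLX1 (-0.26), NRGN (-0.77), TUBB2B (-0.86), VIM (-0.90) and MARCKSL1 (-0.51) with TEAD1-NCOA2, or REST (0.73), RAB3A (-0.99), CPLX1 (-0.28) and MARCKSL1 (-0.92) with YAP5SA.

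**Figure D4:**
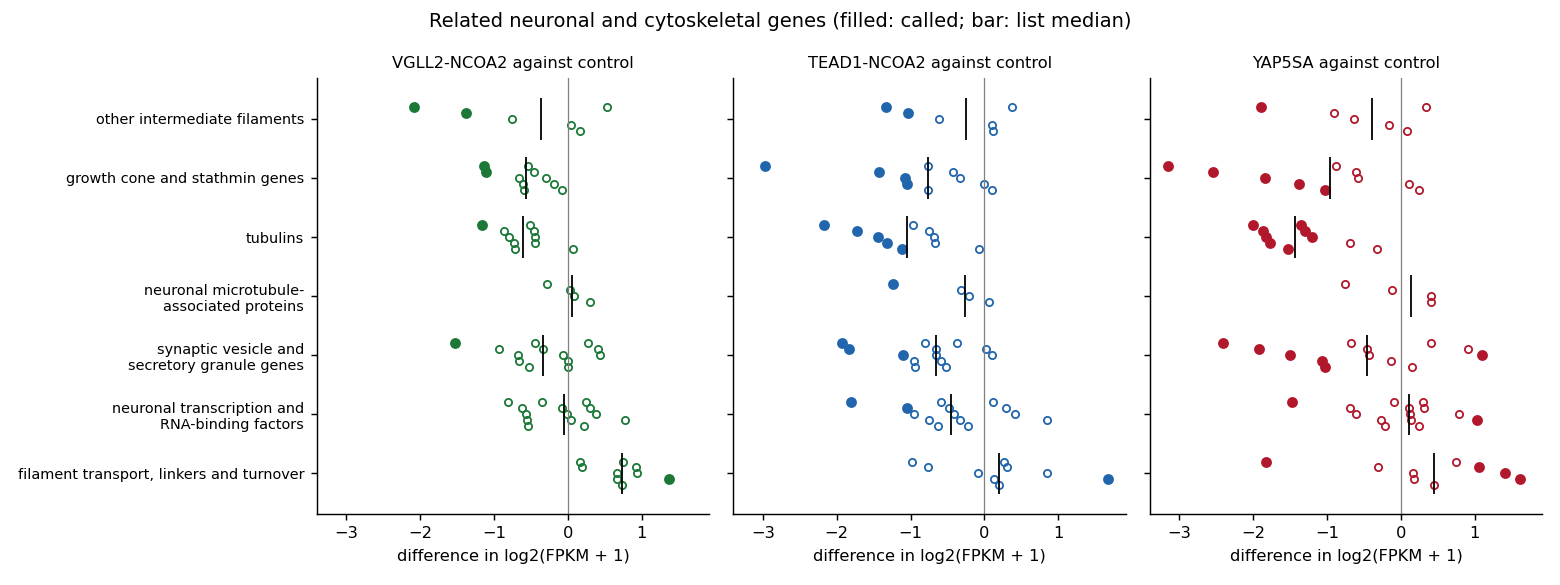
Difference from control in log2(FPKM + 1) for the 66 related genes tested, by list, in the 3 comparisons. Points are genes, filled where called, and bars are list medians; called points lie mostly below 0, except in the list of filament transport, linkers and turnover, where KIF5B is above 1 in all 3.

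Over the 12 libraries NEFL and NEFM moved most alike among the 5 genes tested (Pearson r = 0.87, Spearman coefficient 0.80 in log2(FPKM + 1)), INA and SYP had r = 0.70, and NEFL and SYP had r = -0.27. Among 7338 protein-coding genes with a mean of at least 5 FPKM, the pattern closest to NEFM was that of RND2 (r = 0.990), with 11.3, 5.71, 2.76 and 0.826 FPKM in control, VGLL2-NCOA2, TEAD1-NCOA2 and YAP5SA cells, and next NUDT9 (0.988). PLRG1 (0.992) and PGD (0.990) came closest to NEFL, and UBAP1 (0.912) and SNX11 (0.900) to INA. PDRG1 (0.981) and PLPPR3 (0.978, with 30.4, 8.04, 5.08 and 11.8 FPKM) came closest to GAP43. DOC2A, a calcium sensor of vesicle release (0.962, with 8.08, 6.10, 1.68 and 6.53 FPKM), and NELFCD (0.961) came closest to SYP. These coefficients describe 12 libraries in 4 groups that share their treatments and scaling, and they carry no test.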

How the data were processed

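RNA of HEK293T cells was purified with an RNeasy kit and sequenced as paired reads of 150 bases after SMARTER mRNA library preparation. The authors deposited FPKM per gene in 4 tables, 1 per group, which may have been normalized separately. For the aligner and counter, the sources used here give no name. GRCm38 and mm10, which are mouse builds, are named in the submitters' processing notes, whereas all 58735 gene IDs and coordinates matched human GENCODE 29 (GRCh38). Matching used gene IDs, since 12 symbols had turned into dates.

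Values were taken as log2(FPKM + 1), so differences understate the change of low genes. Genes at 1 FPKM or more in at least 3 of 12 libraries were fitted with limma 3.58.1 (trend) in R 4.3.3 on group means over all libraries, with Benjamini-Hochberg adjustment, and called at an adjusted p under 0.05 and a difference over 1. The design foresaw a count test where counts were given, and whole fragments were recovered from 9 libraries (100% of values within 0.05 of a whole number) for limma-voom as an alternative. In the YAP5SA libraries 20.8% to 22.6% came out whole, where random values give 10.0%, and no fragments were used. The fit was tested on simulated data.

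The 8 genes and all lists were chosen with earlier results of these data known. Named genes were the 8, REST, up to 4 called genes per list by largest difference (none called: the 2 most abundant), and the 2 protein-coding genes most correlated with each gene tested. Genes beyond that rule (the transfected genes, neighbours, SV2A) were named after their values were seen. A gene that the rule names is not reported here. Alternatives were the pseudocount, the minimum, TPM and quantile scales, length and GC correction, the replicate block, groups compared alone, libraries left out, voom and no threshold on the difference. Intervals and floors cover counting error only.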

Additional observations from a re-analysis of the deposited data

How the results depend on the processing

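No called difference changed sign under any alternative. Of 8 genes, those called with VGLL2-NCOA2 against control went from 3 to 0 on the TPM scale, those with TEAD1-NCOA2 from 4 to 2 after length and GC correction (2 also with the replicate block), and those between the fusions from 2 to 1 after quantile normalization, after length and GC correction and with the block added to it (1). Without a filter on low values STMN2 was called lower in all 3 comparisons with control. Of all 38153 genes then fitted, 739, 993 and 1534 were called lower with VGLL2-NCOA2, TEAD1-NCOA2 and YAP5SA. STMN2 reached 1 FPKM in control libraries only and was chosen on these values, so its calls are a description only. GAP43 was called with YAP5SA at a pseudocount of 0.1 (-1.27) and after quantile normalization (-1.08), and at 0.1 also between the fusions (1.08) and between TEAD1-NCOA2 and YAP5SA (-1.48; TPM -1.42). NEFM with VGLL2-NCOA2 was -0.61 after quantile normalization. NEFL with TEAD1-NCOA2 was -0.51 on the TPM scale, -0.62 after quantile normalization, -0.83 after length and GC correction and -0.89 with voom. SYP with TEAD1-NCOA2 was -0.96 after length and GC correction. The values of NEFM, NEFL and SYP given here were not called. The differences of all genes correlated with GC content (Spearman coefficients -0.39, -0.42 and -0.28 for VGLL2-NCOA2, TEAD1-NCOA2 and YAP5SA).

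Over all genes the calls were 1807, 1500 and 3264 against control, and 315 (VGLL2-NCOA2 against TEAD1-NCOA2), 653 (VGLL2-NCOA2 against YAP5SA) and 941 (TEAD1-NCOA2 against YAP5SA). A pseudocount of 0.1 gave 3133 and 2800 for the fusions against control, and 796, 1192 and 1893 among treated groups. A minimum of 5 FPKM gave 1174, 972 and 2077, then 180, 373 and 469. TPM gave 4629, 3145 and 6633, then 798, 1276 and 2593. Length and GC correction gave 1127 and 912 for the fusions (1139 and 919 with the block). Voom gave 3291 and 2740, and 730 between the fusions. With no threshold on the difference the counts were 8589, 7744 and 10069, then 3180, 5002 and 6456. The share called lower with TEAD1-NCOA2 went from 69.3% to 57.6% after quantile normalization and 52.4% after length and GC correction. Between the fusions 256 were higher and 59 lower (142 and 97 after quantile normalization). Between TEAD1-NCOA2 and YAP5SA, 275 and 666 (TPM 208 and 2385, quantile 350 and 442), and between VGLL2-NCOA2 and YAP5SA, 325 and 328 (TPM 340 and 936).

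Of the related genes 7, 18 and 26 were called. With VGLL2-NCOA2 there were 12 at a pseudocount of 0.1, 14 on the TPM scale, 4 after quantile normalization, 4 after length and GC correction (4 with the block), 14 with voom and 43 with no threshold. With TEAD1-NCOA2 there were 10 after length and GC correction (10 with the block) and 48 with no threshold, and with YAP5SA 50.

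Leaving out 1 library at a time gave 1594 to 2120, 1267 to 1794 and 2737 to 3691 calls against control, and 274 to 349, 595 to 715 and 809 to 1050 among treated groups. Of the 8 genes it gave 2 to 3, 3 to 4 and 2, and among treated groups 2, 2 and 3. Of the related genes it gave 6 to 9, 15 to 21 and 22 to 27. The replicate block alone called the same number of the 8 genes in all 6 comparisons (3, 4, 2, 2, 2 and 3). The samples were not treated as paired, since not every same-numbered pair correlated over 0.1: deviations of 18 same-numbered pairs correlated at -0.05 to 0.27, 3 of them over 0.1, and 9 of 12 samples were closer on average to their own number, a hint of shared variation from the data and not from the design. The causes of these shifts were not tested. Depth limits NEFH, STMN2 and TUBB3, with at most 9 fragments in any library of the fusions.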
